A study of Homo sapiens with 4 samples.

Results

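The RNAs described here are those of the human mitochondrial genome, the 2 ribosomal RNAs MT-RNR1 and MT-RNR2 and the messenger RNAs MT-ND1, MT-ND2, MT-CO1, MT-CO2, MT-CO3, MT-ND4, MT-ND5 and MT-CYB, as they were recovered in HITS-CLIP of Star-PAP. HITS-CLIP crosslinks protein to RNA in living cells with ultraviolet light, pulls down the protein and sequences the RNA fragments bound to it. Every peak summit of the 3 deposited lists that lay on the mitochondrial chromosome was taken, without regard to its score, and was assigned to a gene by its position, with the 10 genes named above assigned first. This gave 28 of 1031599 summits, of which 4 came from the StarPAP list, 12 from the siStar-PAP list and 12 from the siRBM10 list. The genome carries 37 annotated genes, namely 2 for rRNAs, 13 for mRNAs and 22 for tRNAs.

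All libraries were made from HEK293 cells, an established line of human embryonic kidney origin, which were crosslinked at 400 mJ per cm2 before they were harvested. The labels give siRNA transfection and harvest at 48 h after it for all libraries alike, and do not say whether the StarPAP and IgG cells received a control siRNA. The StarPAP library was the pull-down with the anti-Star-PAP antibody in cells for which the labels name no depleted protein, and the siStar-PAP and siRBM10 libraries were pull-downs with the same antibody after depletion of Star-PAP or of its co-regulator RBM10. A pull-down with IgG entered only as the reference against which the authors called the peaks of the other 3 libraries. Each condition was 1 library, so there is no replicate error, no difference between conditions was tested, and intervals below cover counting error only.

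Mitochondrial DNA is transcribed from both strands into long precursors that cover many genes. The tRNAs that lie between the rRNAs and mRNAs are cut out of these precursors, which frees the RNAs on either side, and a mitochondrial poly(A) polymerase, MTPAP, then tails most mRNAs and completes the stop codons of several of them. Star-PAP, encoded by the nuclear gene TUT1, is a different non-canonical poly(A) polymerase, known from the nucleus, and RBM10 is a nuclear RNA-binding protein that works with it on a set of pre-mRNAs.

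The highest mitochondrial summit of every list lay in MT-RNR2, the 16S rRNA of the large subunit of the mitochondrial ribosome, at a different base in each. The stretches around these 3 summits are shown because no other mitochondrial gene held a summit in all 3 lists. Positions are those of the lists. The lists name sequences of the full UCSC hg19 set, whose mitochondrial chromosome is an older sequence than the revised Cambridge sequence of 16569 bases used here, and the numbering of these sequences differs by up to 2 bp. The letters are therefore those of the revised Cambridge sequence of GRCh37 on the plus strand, 5′ to 3′, and capitals mark the summit base with 2 bases on either side.
MT-RNR2, StarPAP, chrM:2102-2166: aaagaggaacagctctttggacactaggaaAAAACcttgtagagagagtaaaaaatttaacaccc
MT-RNR2, siStar-PAP, chrM:1897-1961: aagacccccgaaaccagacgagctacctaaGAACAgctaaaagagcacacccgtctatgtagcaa
MT-RNR2, siRBM10, chrM:2683-2747: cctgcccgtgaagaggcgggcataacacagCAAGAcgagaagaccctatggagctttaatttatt

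In the 4 genes MT-ND1, MT-CO1, MT-CO2 and MT-ND4L and in the control region, the siStar-PAP and siRBM10 lists had summits within 100 bp of each other. The stretches of MT-ND1, MT-CO2, MT-ND4L and the control region are shown as sites found in both depletion libraries, with capitals from the first summit to the second, widened by 2 bases on either side, under the same limit on numbering.
MT-ND1, chrM:3506-3623: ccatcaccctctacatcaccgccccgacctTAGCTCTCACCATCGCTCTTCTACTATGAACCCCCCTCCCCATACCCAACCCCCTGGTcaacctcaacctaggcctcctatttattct
MT-CO2, chrM:7857-7924: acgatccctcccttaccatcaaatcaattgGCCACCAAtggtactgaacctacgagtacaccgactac
MT-ND4L, chrM:10621-10755: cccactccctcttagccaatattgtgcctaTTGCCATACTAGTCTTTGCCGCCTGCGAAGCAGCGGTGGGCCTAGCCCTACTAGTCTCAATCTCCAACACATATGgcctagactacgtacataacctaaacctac
Control region, chrM:16357-16507: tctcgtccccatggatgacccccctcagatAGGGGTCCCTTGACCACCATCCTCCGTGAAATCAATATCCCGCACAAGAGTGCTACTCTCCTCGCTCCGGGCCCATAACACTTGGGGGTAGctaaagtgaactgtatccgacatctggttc

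The lists give 1 base and 1 score per peak, and the score is the −log10 of the peak caller's p-value against IgG. The lists give no strand, width, tag number or read total, so the depth behind each summit is unknown, and scores of different lists are not on a common scale. A change in the number of cells, in the level of an RNA and in the binding of Star-PAP to it cannot be told apart from summits. The genes targeted by siRNA do not check the depletion either, since a pull-down holds no expression level. TUT1 (11, 62342517 to 62359109, minus strand) held 5 summits in the StarPAP list, 8 in the siStar-PAP list and 3 in the siRBM10 list, of which 4, 4 and 0 were in exons, with highest scores of 6.01, 7.83 and 4.30. RBM10 (X, 47004620 to 47046212, plus strand) held 7, 17 and 9 summits in the same order, of which 5, 4 and 1 were in exons, with highest scores of 29.1, 3.89 and 5.11. The cell line could not be checked against marker genes for the same reason.

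Mitochondrial summits were few in every list and dense for the length of the genome. They made up 0.000972% of the StarPAP list (95% Wilson interval 0.000378 to 0.00250%, 4 of 411400), 0.00368% of the siStar-PAP list (0.00211 to 0.00644%, 12 of 325797) and 0.00408% of the siRBM10 list (0.00233 to 0.00713%, 12 of 294402). The depletion lists were shorter and yet held 12 mitochondrial summits each against 4. The intervals of the siStar-PAP and siRBM10 shares overlapped each other, and the upper end of the StarPAP interval reached above the lower ends of both. When only summits with a score of at least 4 were kept, the counts were 4, 11 and 11 and the shares 0.0391, 0.0526 and 0.0298% in the StarPAP, siStar-PAP and siRBM10 lists, so the order of the shares depended on the threshold.

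Per length, there were 241.4 mitochondrial summits per Mb in the StarPAP list beside 143.7 per Mb on the nuclear chromosomes, a ratio of 1.68. In the siStar-PAP list the density was 724.2 beside 113.8 per Mb, a ratio of 6.36, and in the siRBM10 list it was 724.2 beside 102.7 per Mb, a ratio of 7.05. The ratios count summits of every score, and 259946 of the 411400 StarPAP summits had that list's commonest score of 1.33. Like the shares, the ratios depend on the threshold. A score of at least 4 was reached by 2.48, 6.41 and 12.6% of nuclear summits in the StarPAP, siStar-PAP and siRBM10 lists, beside 4, 11 and 11 mitochondrial ones. No nuclear chromosome was denser than the mitochondrial genome in any list. The densest reached 183.1 per Mb on chromosome X in the StarPAP list, and 291.4 and 245.4 per Mb on chromosome 19 in the siStar-PAP and siRBM10 lists. Nearest summits on the mitochondrial genome were at least 1100, 366 and 447 bp apart in the StarPAP, siStar-PAP and siRBM10 lists, and the smallest nuclear spacings were 178, 158 and 152 bp. A cell also holds many copies of the mitochondrial genome, so a density per base of genome is not a density per copy.

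**Figure D1:**
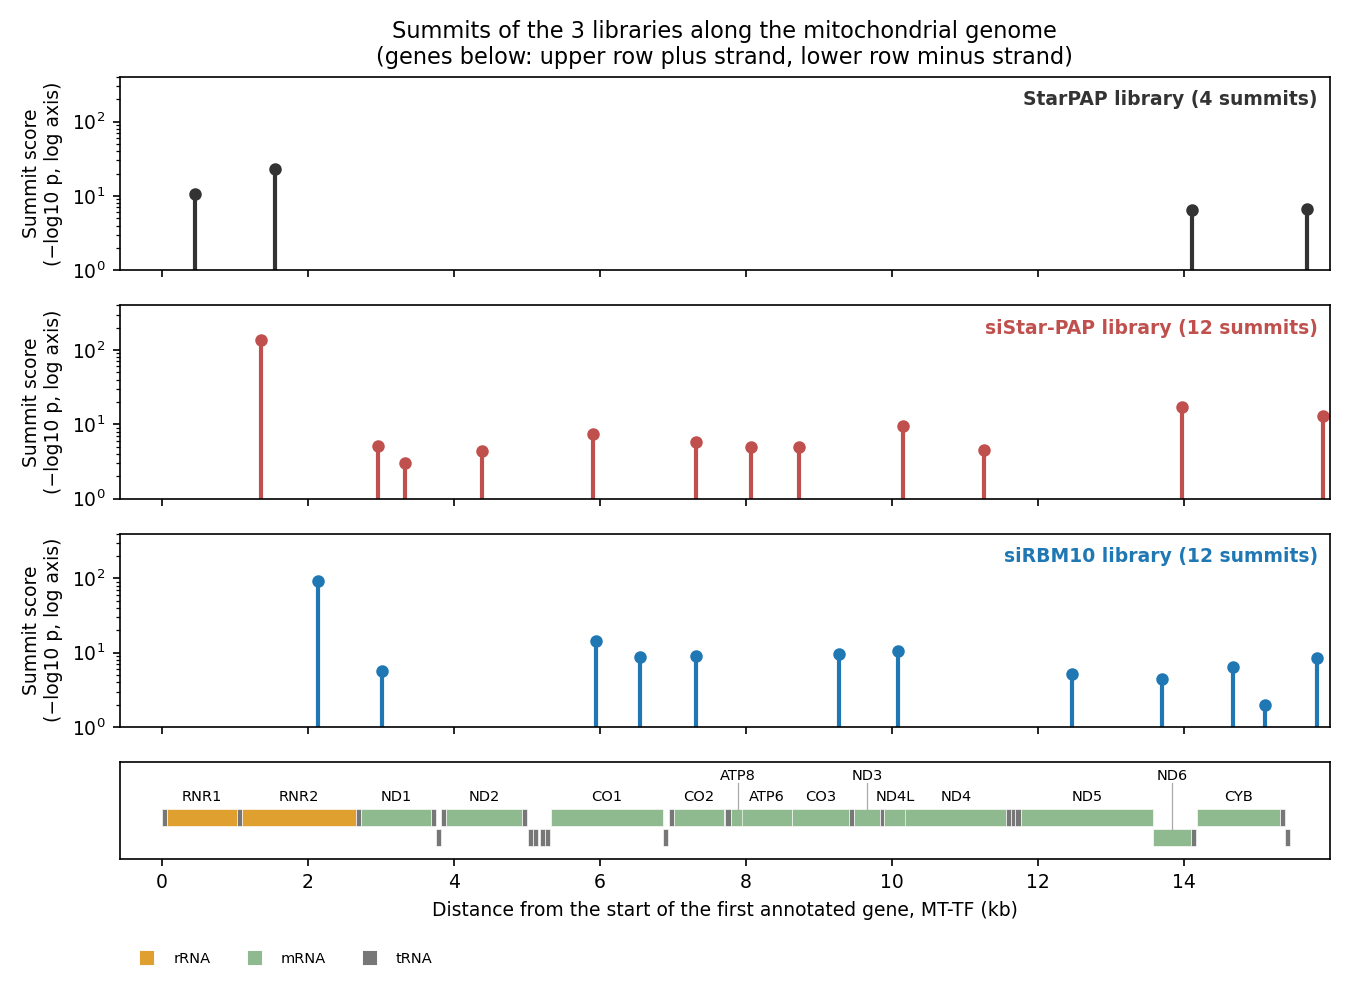
Each panel gives the mitochondrial summits of 1 library, with the distance from the start of MT-TF in kb on the x axis and the score (−log10 p, log axis) on the y axis, above a map of the genes by class and strand. The 4 StarPAP summits leave the stretch between MT-RNR2 and MT-TE empty. From MT-TL1 to MT-ND6, a stretch of 11444 of the 16569 bases, lie 10 of 12 siStar-PAP and 8 of 12 siRBM10 summits. The highest score of every library lies in MT-RNR2.

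Summits in mRNA genes came from the depletion lists, while rRNA genes and the control region held summits in every list. In the StarPAP list 2 of 4 summits were in rRNA genes (50.0%, 95% Wilson interval 15.0 to 85.0%), 1 was in a tRNA gene, 1 was in the control region and none was in an mRNA gene (0 of 4, interval up to 49.0%). In the siStar-PAP list 10 of 12 summits were in mRNA genes (83.3%, 55.2 to 95.3%), 1 was in an rRNA gene and 1 was in the control region. The siRBM10 list gave the same counts, with 10 of 12 in mRNA genes. The intervals of the mRNA share in the StarPAP list and in each depletion list did not overlap, but they cover counting error within 1 library each, and the caller keeps summits of 1 list apart. With each gene within 100 bp of a summit counted, 1 of the 4 StarPAP summits also counted for mRNA genes (25.0%, 4.56 to 69.9%), and the intervals then overlapped.

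By length, mRNA genes took up 68.4% of the mitochondrial genome, rRNA genes 15.2%, tRNA genes 9.08%, the control region 6.77% and other spacers 0.537%. The 83.3% of summits in mRNA genes of each depletion list had an interval that holds the length share of 68.4%. The interval of 0 to 49.0% in the StarPAP list lies below it. That of 4.56 to 69.9% with neighbouring genes counted has no matching length share. Genes widened by 100 bp take up more than 68.4% of the genome, and their share was not computed. From MT-TL1, the tRNA gene that follows MT-RNR2, to the end of MT-ND6 (3230 to 14673) lie 11444 of the 16569 bases. The StarPAP list held 0 of its 4 summits there, the siStar-PAP list 10 of 12 and the siRBM10 list 8 of 12. These bounds lie inside the widest gap of the StarPAP list (12551 bp), so its count of 0 follows from where they were drawn. No difference of the counts from the length of the stretch was tested.

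The rRNA genes are transcribed together and give the most abundant stable RNAs of the organelle. MT-RNR1, the 12S rRNA of the small subunit (M, 648 to 1601, plus strand), held a summit only in the StarPAP list, at 1034 with a score of 10.8, which is base 387 of the gene. Neither depletion list had a summit in MT-RNR1. MT-RNR2 (M, 1671 to 3229, plus strand) held 1 summit in each list. In the StarPAP list it lay at 2134, base 464 of the gene, with a score of 22.9. In the siStar-PAP list it lay at 1929, base 259, with a score of 136.0, and in the siRBM10 list at 2715, base 1045, with a score of 93.0. The MT-RNR2 summit was thus the highest mitochondrial one in all 3 lists, while its position moved by 205 bp between the StarPAP and siStar-PAP lists and by 581 bp between the StarPAP and siRBM10 lists.

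Within its own list, the MT-RNR2 summit ranked 54 of 411400 by score in the StarPAP list, 3 of 325797 in the siStar-PAP list and 4 of 294402 in the siRBM10 list. The whole StarPAP list reached a score of 121.3, the siStar-PAP list 269.5 and the siRBM10 list 244.9. Mitochondrial summits as a group stood high in their lists. The lowest, median and highest mitochondrial scores were 6.42, 8.70 and 22.9 in the StarPAP list beside a list median of 1.33. They were 3.03, 5.43 and 136.0 in the siStar-PAP list beside a list median of 2.64, and 1.97, 8.62 and 93.0 in the siRBM10 list beside a list median of 2.83.

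A score of at least 4 was reached by 4 of 4 mitochondrial summits in the StarPAP list and by 2.48% of nuclear summits. In the siStar-PAP list it was reached by 11 of 12 beside 6.41%, and in the siRBM10 list by 11 of 12 beside 12.6%. Of the 1000 highest summits of each list, 2 were mitochondrial in the StarPAP list, 5 in the siStar-PAP list and 7 in the siRBM10 list. The exceptions were a siStar-PAP summit in MT-ND1 with a score of 3.03 and a siRBM10 summit in MT-CYB with a score of 1.97, at or above which 91.0% of that list lay.

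**Figure D2:**
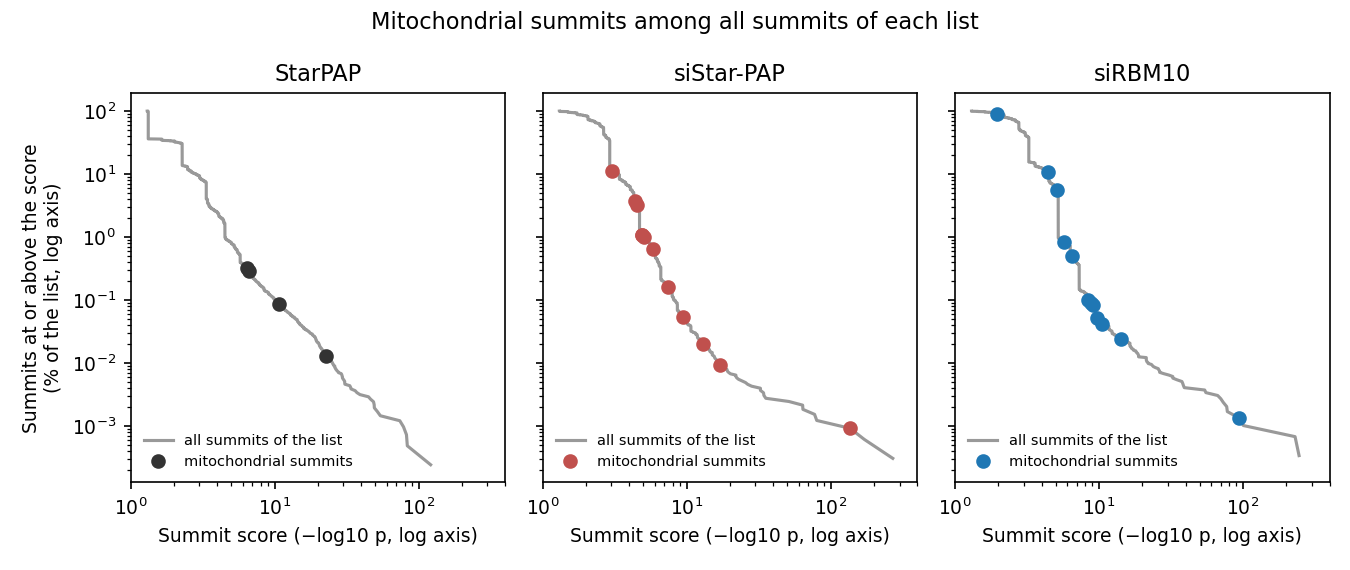
For each library, the grey line gives the share of all summits of the list (%, log axis) at or above a score (−log10 p, log axis), and points mark the mitochondrial summits on it. All 4 StarPAP points, 11 of 12 siStar-PAP points and 11 of 12 siRBM10 points lie at a score of 4 or more, and 1 siRBM10 point with a score of 1.97 lies among the lowest scores of its list.

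The mRNAs of complex I, the NADH dehydrogenase at the entry of the respiratory chain, held summits only in the depletion lists. MT-ND1 (3307 to 4262) held siStar-PAP summits at 3538 with a score of 5.05 and at 3904 with a score of 3.03, and a siRBM10 summit at 3591 with a score of 5.72. MT-ND2 (4470 to 5511) held 1 siStar-PAP summit at 4967 with a score of 4.36 and none in the other lists. MT-ND4 (10760 to 12137) held 1 siStar-PAP summit at 11841 with a score of 4.50. MT-ND5 (12337 to 14148), the longest mitochondrial mRNA gene, held 1 siRBM10 summit at 13042 with a score of 5.09. Of these 4 genes, MT-ND1 was marked in both depletion lists, and MT-ND2, MT-ND4 and MT-ND5 each in 1.

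Complex I is also encoded by MT-ND3, MT-ND4L and MT-ND6. MT-ND4L (10470 to 10766), which shares a transcript with MT-ND4, held a siStar-PAP summit at 10723 with a score of 9.48 and a siRBM10 summit at 10653 with a score of 10.4. MT-ND6 (14149 to 14673) is the mRNA gene of the minus strand, and it held a siStar-PAP summit at 14544 with a score of 17.1, the second highest of the mitochondrial summits in that list, and a siRBM10 summit at 14267 with a score of 4.39. MT-ND3 (10059 to 10404) held no summit in any list. Because summits carry no strand, RNA of MT-ND6 and the opposite strand of the long plus-strand precursor could not be told apart.

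The 3 mRNAs of cytochrome c oxidase, complex IV, were all marked in both depletion lists. MT-CO1 (5904 to 7445) held a siStar-PAP summit at 6482 with a score of 7.45 and siRBM10 summits at 6516 and 7130 with scores of 14.2 and 8.84. The first of these was the second highest of the mitochondrial summits in the siRBM10 list. MT-CO2 (7586 to 8269) held a siStar-PAP summit at 7892 with a score of 5.81 and a siRBM10 summit at 7889 with a score of 9.04, 3 bp apart. MT-CO3 (9207 to 9990) held a siStar-PAP summit at 9308 with a score of 4.92 near its start and a siRBM10 summit at 9845 with a score of 9.73 near its end, so both lists marked the gene at separate places.

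The remaining mRNAs code for cytochrome b of complex III and for the ATP synthase. MT-CYB (14747 to 15887) held siRBM10 summits at 15241 and 15688 with scores of 6.44 and 1.97 and none in the other lists. MT-ATP6 (8527 to 9207) held a siStar-PAP summit at 8647 with a score of 4.90. MT-ATP8 (8366 to 8572), which overlaps MT-ATP6 on the same transcript, held none in any list.

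Counted over genes, 2 of the 10 named genes held a summit in the StarPAP list, 7 in the siStar-PAP list and 7 in the siRBM10 list. For scale, an exon summit was held by 35.4, 58.3 and 55.8% of the 20163 nuclear protein-coding genes in the same lists. MT-RNR2 was the gene with a summit in all 3 lists. MT-ND1, MT-CO1, MT-CO2 and MT-CO3 held summits in 2 lists, both depletions, and the other 5 genes in 1 list. Over all 13 mRNA genes, 0 held a summit in the StarPAP list, 9 in the siStar-PAP list and 8 in the siRBM10 list, with 6 in both depletion lists, 3 in the siStar-PAP list alone and 2 in the siRBM10 list alone. The counts of 9 and 8 of 13 in the depletion lists are near the nuclear shares, and 0 of 13 in the StarPAP list is below the 35.4% there, with genes of other lengths compared and no test made. The nuclear shares count summits of every score. In the StarPAP list 259946 of 411400 summits had a score of 1.33, while its lowest mitochondrial score was 6.42. Whether the genes marked in 1 depletion list alone differ between the depletions was not tested.

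**Figure D3:**
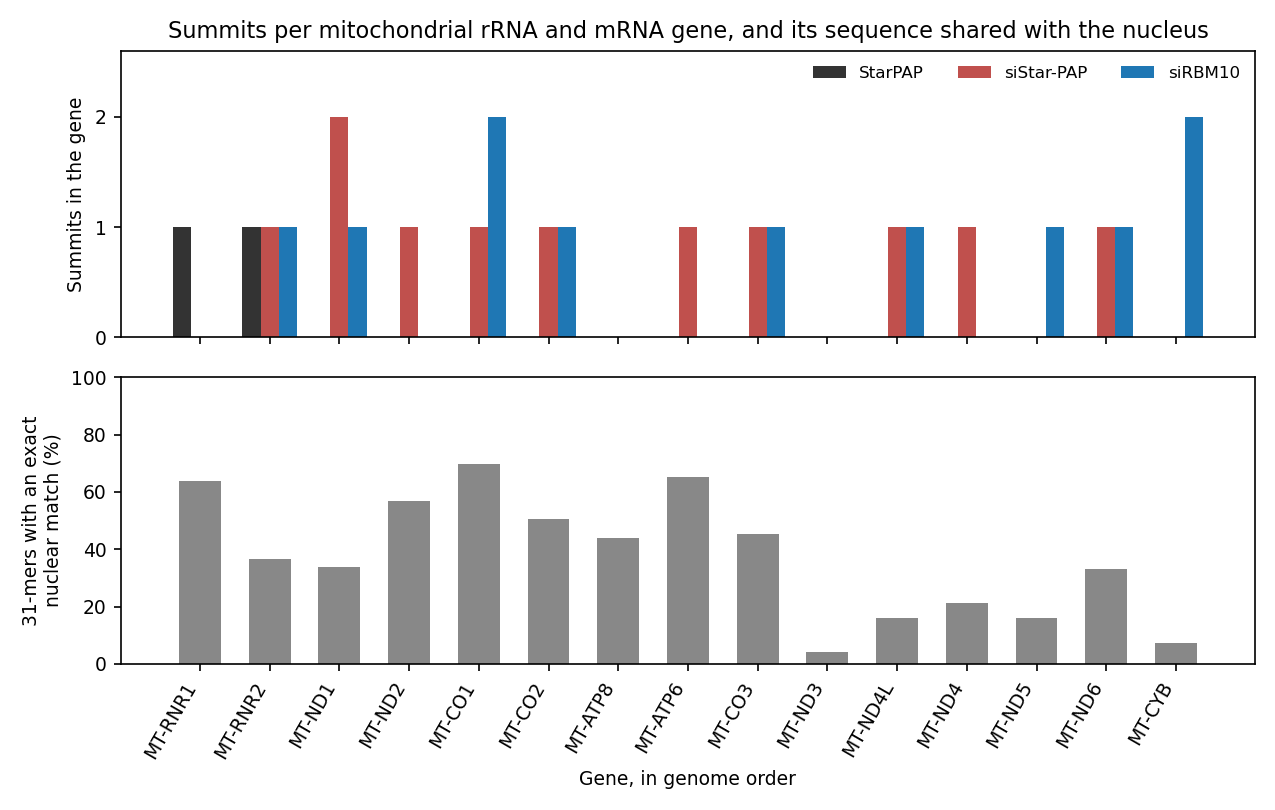
The upper panel gives the number of summits in each mitochondrial rRNA and mRNA gene, in genome order, with 1 bar for each library, and the lower panel the share of the 31-mers of the gene (%) that have an exact match on a nuclear chromosome. MT-RNR2 has a bar in all 3 libraries, 6 mRNA genes have bars in both depletion libraries, and MT-ATP8 and MT-ND3 have none.

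Star-PAP is known for its action at the 3′ ends of nuclear mRNAs, so the distance of each mRNA summit from the 3′ end of its gene was read as well. Of 10 siStar-PAP summits in mRNA genes, 5 lay in the last 500 bases of the gene and 1 within 100 bases of the end. The last 500 bases make up 51.3% of the summed length of the mRNA genes and the last 100 bases 11.4%. The summit nearest to an end was the one at 10723, which lay 43 bases before the 3′ end of MT-ND4L and so inside the transcript shared with MT-ND4. Of 10 siRBM10 summits in mRNA genes, 6 lay in the last 500 bases and 0 within 100 bases of the end. Both counts for the last 500 bases were near that share. The nearest of the siRBM10 summits lay 113 bases before the end of MT-ND4L, 118 before that of MT-ND6 and 145 before that of MT-CO3.

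The tRNA genes and the control region held the rest. The StarPAP summit at 14685 with a score of 6.42 lay in MT-TE, the tRNA for glutamate on the minus strand, 11 bases before its 3′ end, where MT-ND6 follows. The other 21 tRNA genes held no summit in any list. The control region, the non-coding stretch with the promoters and the displacement loop, held 1 summit in each list. They lay at 16252 with a score of 6.61 in the StarPAP list, at 16475 with a score of 13.0 in the siStar-PAP list and at 16389 with a score of 8.39 in the siRBM10 list. These were 229, 452 and 366 bases from MT-TP, the tRNA gene that borders the region. All 3 control region summits were thus on the side of the last gene, and the side of MT-TF held none.

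Among the 25 summits in genes, 22 lay in genes of the plus strand and 3 in genes of the minus strand, which were MT-ND6 in both depletion lists and MT-TE in the StarPAP list. All 10 named genes and 12 of the 13 mRNA genes are on the plus strand, so most of the gene length is there. Summits carry no strand, and no preference for a strand can be read from these counts.

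No mitochondrial site had a summit in all 3 lists within 100 bp. Of the 4 StarPAP summits, 0 had a siStar-PAP summit and 0 a siRBM10 summit within 100 bp (each 0%, 95% Wilson interval up to 49.0%), beside 2.96 and 2.13% of nuclear StarPAP summits. Among nuclear StarPAP summits with a score of at least 4, which all 4 mitochondrial ones reached, the shares were 9.01 and 5.62%. Of the 12 siStar-PAP summits, 5 had a siRBM10 summit within 100 bp (41.7%, 19.3 to 68.0%), and the same pairs gave 5 of 12 in the other direction. These pairs were the MT-CO2 summits 3 bp apart, the MT-CO1 summits 34 bp apart, the MT-ND1 summits 53 bp apart, the MT-ND4L summits 70 bp apart and the control region summits 86 bp apart. MT-RNR2, the gene with the highest scores, was not among them. The sequences of the MT-CO2, MT-ND1, MT-ND4L and control region sites are given above.

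For scale, 14.6% of the mitochondrial genome lay within 100 bp of a siRBM10 summit and 14.5% within 100 bp of a siStar-PAP summit. On the nuclear chromosomes 4.48% of siStar-PAP summits had a siRBM10 summit within 100 bp and 4.96% of siRBM10 summits a siStar-PAP summit, in less dense lists. For nuclear summits with a score of at least 4 these shares were 6.61 and 5.23%. The lists share the IgG reference and the caller spaces the summits within a list, so no test of these differences was made. The StarPAP summit in MT-TE lay 141 bp from the nearest siStar-PAP summit, that in MT-RNR2 205 bp, that in the control region 223 bp and that in MT-RNR1 895 bp. From the nearest siRBM10 summit they lay 418, 581, 137 and 1681 bp in the same order. At 250 bp, 3 of 4 StarPAP summits had a siStar-PAP summit and 1 of 4 a siRBM10 summit, where 34.5 and 35.5% of the mitochondrial genome lay within that distance and 6.18 and 4.80% of nuclear StarPAP summits had such a neighbour. With a score of at least 4, 18.9 and 12.2% of nuclear StarPAP summits had one.

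**Figure D4:**
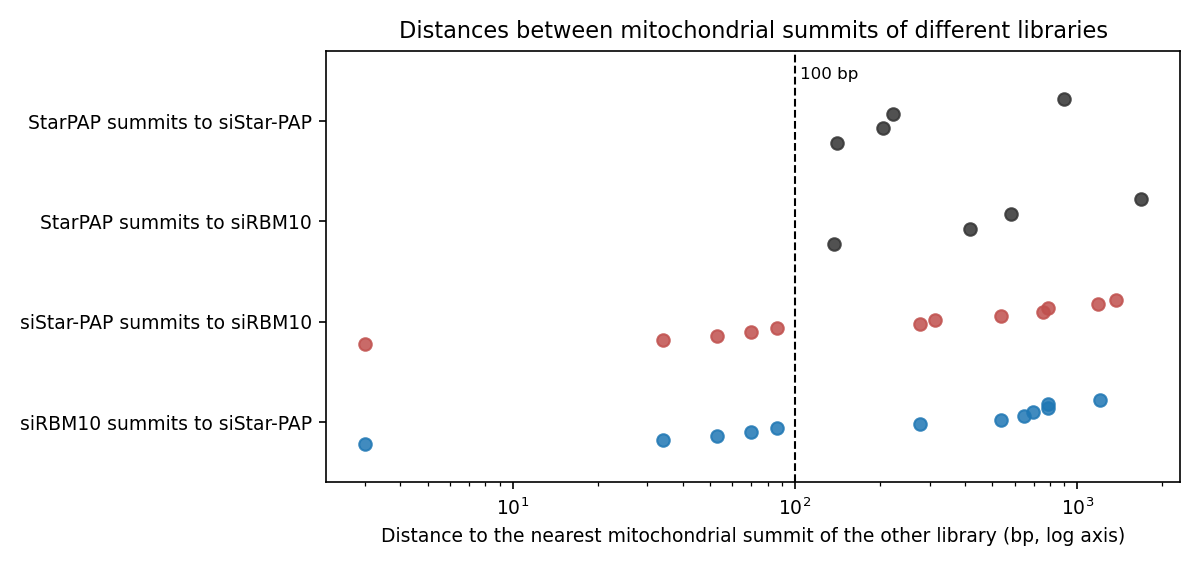
Each point is 1 mitochondrial summit, placed by its distance to the nearest mitochondrial summit of another library (bp, log axis), with 1 line of points for each pair of libraries and the dashed line at 100 bp. The 4 StarPAP summits lie to the right of the line in both comparisons, and 5 of 12 summits lie to its left between the depletion libraries, the nearest at 3 bp.

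Nuclear chromosomes carry copies of mitochondrial DNA, and reads of at least 18 nt that match both places would be lost when only uniquely mapped reads are kept, so the sequence shared with the nucleus was read beside the summits. Of the 16539 stretches of 31 bases in the mitochondrial genome, 6235 (37.7%) had an exact match on a nuclear chromosome, and shorter stretches match at least as often. The stretches are those of the revised Cambridge sequence, so the shares can differ on the older sequence of the lists. The share was 47.5% in rRNA genes, 36.2% in mRNA genes, 55.8% in tRNA genes and 1.28% in the control region. Among the named genes it ran from 7.11% in MT-CYB and 15.9% in MT-ND5 to 63.7% in MT-RNR1 and 69.7% in MT-CO1. Of the genes with no summit, MT-ND3 stood at 4.11% and MT-ATP8 at 44.1%, and the 21 tRNA genes ran from 0 to 100%, with 7 of them at 100%. In windows of 500 bp around the summits the lowest, median and highest shares were 0.212, 37.8 and 64.1% in the StarPAP list. They were 0.425, 41.7 and 62.6% in the siStar-PAP list, and 0, 20.6 and 76.0% in the siRBM10 list. Their part in where summits were called was not tested.

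With summits of every score counted, the annotated nuclear copies did not show the order of the lists seen on the mitochondrial genome. Of 409 annotated pseudogenes of mitochondrial genes, 57 (13.9%) held a summit in the StarPAP list, 38 (9.29%) in the siStar-PAP list and 32 (7.82%) in the siRBM10 list. Per length this was 183.2, 119.1 and 103.8 summits per Mb, beside 143.7, 113.8 and 102.7 per Mb on the nuclear chromosomes. Like the shares above, the order of the counts in the copies depends on the threshold. The median score in a copy was 1.33, 2.64 and 3.07 in the StarPAP, siStar-PAP and siRBM10 lists, and 1.33 is the commonest score of the StarPAP list. The highest score in a copy was 3.36, 4.70 and 7.28 in the same order, beside 22.9, 136.0 and 93.0 on the mitochondrial genome. The latter were all in MT-RNR2. Of the 409 copies, 4 were of MT-RNR2 and the others of mRNA genes, with none of MT-RNR1 or of a tRNA gene. In mitochondrial mRNA genes the highest scores were 17.1 and 14.2 in the siStar-PAP and siRBM10 lists, and the StarPAP list had no summit there.

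Nuclear genes for proteins that make, cut, tail or degrade mitochondrial RNA were read for summits in their exons. Of 30 such genes, 12 (40.0%) held an exon summit in the StarPAP list beside 35.4% of all 20163 protein-coding genes, 17 (56.7%) in the siStar-PAP list beside 58.3%, and 17 (56.7%) in the siRBM10 list beside 55.8%. The shares of these 30 genes were close to those of all protein-coding genes in each list. Many StarPAP marks rest on summits of 1.33, the commonest score of that list. At p of at most 0.01 the StarPAP count fell from 12 to 5, which were POLRMT, TRMT10C, LRPPRC, PNPT1 and REXO2. The siStar-PAP and siRBM10 counts were then 16 and 13. That threshold was reached by 33.6, 84.6 and 90.5% of nuclear summits in the StarPAP, siStar-PAP and siRBM10 lists. The share of all protein-coding genes at that threshold was not counted, so the fall cannot be read as particular to these genes. The scores of their exon summits had medians of 1.33, 2.90 and 2.79 and highest values of 3.36 in PNPT1, 4.70 in SLIRP and PNPT1, and 5.20 in FASTKD1 in the StarPAP, siStar-PAP and siRBM10 lists.

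Among the 8 genes for tailing, decay and stability, 5 held an exon summit in the StarPAP list, 6 in the siStar-PAP list and 6 in the siRBM10 list. For this and the smaller groups below, the shares of all protein-coding genes were 35.4, 58.3 and 55.8% in the same order, and no difference was tested. LRPPRC and SLIRP, which form a complex that stabilises mitochondrial mRNAs, and PNPT1, the mitochondrial polynucleotide phosphorylase, held exon summits in all 3 lists, that of SLIRP in the StarPAP list with a score of 1.33. MTPAP, the mitochondrial poly(A) polymerase, held no exon summit in the StarPAP list but 9 summits outside exons, the highest with a score of 8.34. Its siStar-PAP exon summits had scores of 4.28 and 2.90 and its siRBM10 exon summits scores of 2.64 and 3.25. PDE12, which removes poly(A) tails, held 1 exon summit in each depletion list and no summit anywhere in the gene in the StarPAP list. GRSF1 was marked in the StarPAP list alone, with a score of 1.33. SUPV3L1 was marked in the siStar-PAP list alone, and REXO2 in the StarPAP and siRBM10 lists.

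Of the 5 genes for processing at tRNA ends, 3, 4 and 3 held an exon summit in the StarPAP, siStar-PAP and siRBM10 lists. TRNT1, which adds the CCA end to tRNAs, was marked in all 3, PRORP and ELAC2, the nucleases that cut at tRNA ends, in both depletion lists, HSD17B10 in the StarPAP and siStar-PAP lists, and TRMT10C in the StarPAP list. Of the 5 transcription genes 2 were marked in each list, with POLRMT, the mitochondrial RNA polymerase, in all 3, MTERF1 in the StarPAP and siStar-PAP lists and TEFM in the siRBM10 list. The StarPAP exon summits of TRNT1 and MTERF1 had scores of 1.33, and that of HSD17B10 a score of 1.89.

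Of the 6 genes for rRNA modification, 0 were marked in the StarPAP list and 4 in each depletion list, NSUN4, MRM1, MRM3 and RPUSD4 in both, beside the shares of all protein-coding genes of 35.4, 58.3 and 55.8%. The difference was not tested. Of the 6 genes of the FASTK family, whose proteins act on mitochondrial RNAs, 2, 1 and 2 were marked, with FASTKD1 in the StarPAP and siRBM10 lists, FASTKD2 in the StarPAP and siStar-PAP lists and TBRG4 in the siRBM10 list. The StarPAP exon summits of FASTKD1 and FASTKD2 had scores of 1.33. In all, 23 of the 30 genes held an exon summit in at least 1 list, 5 of them in all 3 lists and 8 in both depletion lists alone. The shares of all protein-coding genes in these combinations of lists were not counted, so these counts cannot be read as particular to the 30 genes.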

How the data were processed

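HITS-CLIP of Star-PAP in HEK293 cells gave 4 libraries, of which 3 have a peak list. Reads were trimmed by the authors, freed of duplicates and placed on hg19 (BWA 0.7.12), unique matches of at least 18 nt were kept, and they called peaks with MACS2 against IgG at a p of 0.05 with a fragment size of 500. Cutadapt 1.14 and FastQC 0.72 are named in the submitters' processing notes, and the version of MACS2 is not given in the sources used here. The lists deposited by the authors hold the base of each summit and its −log10 p-value. The labels give transfection with Oligofectamine.

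Groups follow the labels. Summits were assigned to GENCODE release 44 mapped to GRCh37, on a mitochondrial sequence of 16569 bases. Exact nuclear matches of 31-mers were counted on both strands, and this step was tested on simulated data. Intervals are Wilson intervals at 95% (Python 3.11.15, scipy 1.17.1, statsmodels 0.14.6). No test between conditions was made. Named were the 10 member genes, the other mitochondrial mRNAs, each tRNA with a summit, the 5 highest mitochondrial summits per list and the listed factors with an exon summit. The sequence of 1 site is not reported here. The members and lists were chosen with earlier results of these data known. Alternatives for the p threshold, gene bounds, distance, denominator and exon rule were tried.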

Additional observations from a re-analysis of the deposited data

How the results depend on the processing

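Of 190 values under alternative settings, 171 stayed within 1.5 times the reported count or within its interval, and 19 moved. None of the 74 values changed when gene bounds were moved by 2 bp, and 0 of 28 summits lay within 2 bp of a bound. The share of mitochondrial summits rose as low scores were left out, to 0.00290% of the StarPAP list at p of at most 0.01, and at a score of at least 4 to 0.0391% of the StarPAP list, 0.0526% of the siStar-PAP list and 0.0298% of the siRBM10 list, so the order of the lists in this share changed, since the nuclear summits left out differ in number. With each gene within 100 bp of a summit counted, the StarPAP list had 1 mRNA summit, that in MT-TE, near MT-ND6 and MT-CYB, and the gap between its interval and those of the depletion lists closed. The number of StarPAP summits with a siStar-PAP summit was 3 at 250 bp and 3 at 500 bp, and that with a siRBM10 summit was 1 and 2. At 50 bp the siStar-PAP and siRBM10 lists shared 2 sites. With a summit anywhere in the gene, 22, 28 and 28 of the 30 factor genes were marked in the StarPAP, siStar-PAP and siRBM10 lists, and at p of at most 0.01 the StarPAP list marked 5. The shares of all protein-coding genes under these settings were not counted, so these counts cannot be read as particular to the factor genes. Of the 100 values for single genes 5 moved, from these same settings. The base composition around summits was not run, because the mitochondrial sequence used here is not the one of the lists. No paired analysis was possible because each condition had 1 library. With 4, 12 and 12 summits and no read totals, neither replicate error nor depth could be assessed.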
